A study of Mus musculus with 4 samples.

Results

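The BCL2 family decides whether a cell lives or dies by the mitochondrial route, and its transcripts are described here in γδ T cells of mouse epididymal fat that did or did not express PLZF. The members were 10 genes chosen by symbol: the survival genes Bcl2, Bcl2l1 (BCL-XL) and Mcl1, the BH3-only death genes Bcl2l11 (BIM), Bid, Bad, Bbc3 (PUMA) and Pmaip1 (NOXA), and the pore genes Bax and Bak1. They are 10 of the 46165 loci in the tables. Of these 10, 7 were among the 9282 loci that averaged 10 or more normalized counts, the minimum for a test, and Bad, Bak1 and Bbc3 lay under it.

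All cells came from male C57Bl/6 PLZF-GFP mice, 16 to 22 weeks old and fed ad libitum, in which GFP reports PLZF, the transcription factor encoded by Zbtb16. PLZF+ γδ T cells (libraries A7 and B7) were compared with PLZF- γδ T cells (libraries A6 and B6). Each library came from a pool of 10 mice, sorted into TCL buffer in a 96 well plate and prepared by SMARTseq2, a full-length cDNA method for few cells. The labels leave unstated whether a PLZF+ and a PLZF- library share mice, and p-values measure the spread between these pools.

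BAX and BAK1 form pores in the outer mitochondrial membrane that release cytochrome c and start the caspase cascade, and BCL2, BCL-XL and MCL1 hold them in check. BH3-only proteins undo that check by placing a short helix, the BH3 segment, in a groove of the survival proteins. In lymphocytes BIM is known as a main trigger of death after cytokine withdrawal, and BCL2 as a gene kept up by IL-7 signalling.

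The coding bases of the BH3 segment are shown for 6 members because this segment joins the survival, death and pore genes into 1 family. Each GENCODE M21 coding sequence was translated and searched for leucine, any 3 residues, a small residue (glycine, alanine or serine) and aspartate. Each of the 10 members held that pattern. Members other than Pmaip1 held it once, and for Pmaip1 only the first match was kept, so its matches were not counted. The pattern is loose, since 33.8% of 21763 coding genes hold it. Capitals mark the 18 bases that encode the pattern, within 42 coding bases on mm10 coordinates, written 5′ to 3′ on the gene's strand.
Bcl2l11, chr2:128147138-128147179, plus strand, exon 3: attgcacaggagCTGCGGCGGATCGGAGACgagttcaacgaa
Bcl2, chr1:106712572-106712613, minus strand, exon 1: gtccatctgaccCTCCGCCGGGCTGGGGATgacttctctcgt
Bcl2l1, chr2:152829694-152829735, minus strand, exon 2: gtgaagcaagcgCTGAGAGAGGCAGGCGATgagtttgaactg
Mcl1, chr3:95659424-95659465, plus strand, exon 1: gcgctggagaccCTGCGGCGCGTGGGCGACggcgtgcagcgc
Bax, chr7:45465994-45466035, minus strand, exon 3: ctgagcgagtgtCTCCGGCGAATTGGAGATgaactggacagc
Bid, chr6:120897286-120897327, minus strand, exon 4: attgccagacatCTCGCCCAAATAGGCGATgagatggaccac
Compared base by base with Bcl2l11, Bcl2 and Mcl1 shared 19 of 42 bases, Bcl2l1 shared 20, and Bax and Bid shared 22. Of the members whose bases are not shown, Bbc3 shared the most, 28, and Bad and Bak1 shared 23. Within the 18 capital bases Bbc3 shared 15 with Bcl2l11, and Mcl1 and Bax shared 14. Bcl2, Bad and Bak1 shared 11 there, and Bcl2l1 and Bid shared 9. Pmaip1 was not compared.

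The PLZF- libraries were the shallower ones, with an estimated 744569 (A6) and 981885 (B6) reads outside the rRNA precursor Rn45s against 1837511 (A7) and 2035066 (B7). Zbtb16 had 310 (A6), 699 (B6), 2899 (A7) and 2921 (B7) normalized counts, in the direction of the labels. T cell transcripts were lower in PLZF- libraries: of 10 tested γδ T cell markers 9 were higher in PLZF+ and 1, Cd27, was lower, with sums of 2743 (A6), 3939 (B6), 13165 (A7) and 13185 (B7) normalized counts. The tested Tcrd locus had 656 (A6), 844 (B6), 2630 (A7) and 2525 (B7) normalized counts and Cd3e 182 (A6), 367 (B6), 552 (A7) and 661 (B7). Another locus holding the Tcrd symbol, under the minimum for a test, went the other way, with 20.2 (A6), 13.4 (B6), 0.619 (A7) and 0.558 (B7). A further one was at 0 in every library. Many genes listed here as markers of other cell types were higher in PLZF- libraries. All 10 tested innate lymphoid and natural killer markers were lower in PLZF+, with sums of 5420 and 4708 against 212 and 143, and Klre1, Klra8 and Eomes at 0 in both PLZF+ libraries. Of 11 tested plasmacytoid and dendritic markers 7 were lower in PLZF+, with sums of 2230 (A6) and 1085 (B6) against 187 (A7) and 88.1 (B7), and Siglech and Ly6d at 0 in PLZF+. Of 2 tested B cell markers, Igj was lower in PLZF+, with 584 (A6), 257 (B6), 0 (A7) and 0 (B7) normalized counts, and Cd79b did not pass, with 1.69 (A6), 7.32 (B6), 33.4 (A7) and 29.6 (B7), while Ms4a1, Cd79a and Pax5 were at 0 in every library. In bulk libraries such as these, fewer cells of a type and less RNA per cell cannot be told apart. Nor do they show whether γδ T cells or other cells expressed a listed marker.

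Bcl2l11, which encodes the BH3-only killer BIM, was the member that differed between the subsets. It was 6.62-fold lower in PLZF+ than in PLZF- cells, while none of the tested survival or pore genes, Bcl2, Bcl2l1, Mcl1 and Bax, passed the test in either direction. Of the 7 tested members, 1 was lower, 0 were higher and 6 did not pass (limma, adjusted p under 0.05). Over all 9282 tested loci 4.99% were lower and 2.47% higher, so 7.46% were called. At an unadjusted p under 0.05 the count of members was also 1 of 7, beside 1886 of all 9282 tested loci. The authors' deposited table likewise marks 1 member, Bcl2l11, as significant, beside 5.73% of 9226 loci with a valid Cuffdiff test.

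Bcl2l11 had 646 (A6) and 631 (B6) normalized counts in PLZF- libraries and 99.1 (A7) and 93.8 (B7) in PLZF+ libraries. The subsets lay far apart and each pair of pools was close, at 638 ± 11.0 against 96.4 ± 3.78 (mean ± SD, n = 2 pools each). The log2 fold change, PLZF+ minus PLZF- on the log2(normalized count + 1) scale, was -2.71 ± 0.25 (SE; 95% interval -3.26 to -2.17; limma adjusted p = 4.3e-05). Bcl2l11 ranked 27 of 9282 loci by p, and 4.13% of them had a log2 fold change as low or lower. In the authors' deposited table its Cuffdiff q-value was 0.00191. The deposited locus spans chr2:128126038-128186417, and in GENCODE M21 no other gene overlaps Bcl2l11 itself, while the lincRNA Gm14005 on the other strand lies in the range beyond it. In the same PLZF- libraries the innate lymphoid and natural killer marker sum was 5420 (A6) and 4708 (B6), the dendritic sum 2230 and 1085, Igj 584 and 257, and the γδ T cell sum 2743 and 3939. The innate lymphoid and natural killer sum, the dendritic sum and Igj were, like Bcl2l11, lower in PLZF+ libraries. The γδ T cell sum went the other way, at 13165 (A7) and 13185 (B7) in PLZF+. The part of these markers in the Bcl2l11 result was not tested.

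**Figure D1:**
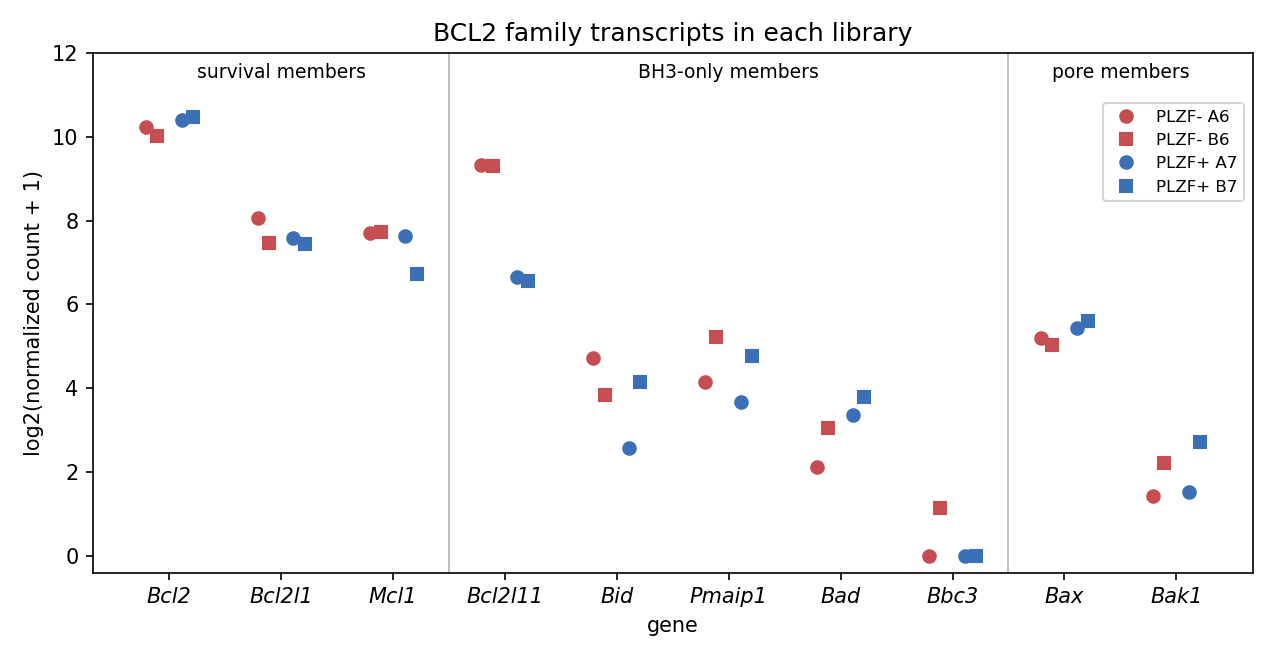
Normalized counts of the 10 members in each of the 4 libraries, on a log2(normalized count + 1) axis; circles and squares are single libraries, red PLZF- and blue PLZF+. Bcl2l11 is the member whose PLZF- points (646 and 631) stand well above its PLZF+ points (99.1 and 93.8).

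Among the survival genes, Bcl2 was the most abundant and did not pass the test. It had 1208 (A6) and 1038 (B6) normalized counts in PLZF- and 1359 (A7) and 1428 (B7) in PLZF+ libraries. Both PLZF+ values lay above both PLZF- values, with a log2 fold change of 0.31 ± 0.17 (SE; 95% interval -0.06 to 0.69; limma adjusted p = 0.34). The 2 deposited rows summed for Bcl2 differed by 0.25 (adjusted p = 0.50) and 0.54 (adjusted p = 0.22) in limma. An antisense gene, D630008O14Rik, overlaps Bcl2, and the labels do not state whether counting used strand.

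Bcl2l1, which encodes BCL-XL, had 267 (A6) and 177 (B6) normalized counts in PLZF- and 191 (A7) and 172 (B7) in PLZF+ libraries. The subsets overlapped and the log2 fold change was -0.26 ± 0.30 (SE; 95% interval -0.90 to 0.39; limma adjusted p = 0.68), turning to 0.04 without library A6. Mcl1, a short-lived protein on which lymphocytes depend, had 209 (A6), 211 (B6), 199 (A7) and 105 (B7) normalized counts. Only B7 stood low, and the log2 fold change of -0.54 ± 0.34 (SE; 95% interval -1.27 to 0.20; limma adjusted p = 0.41) became -0.08 without B7 and -0.99 without A7. The intervals of all 3 survival genes exclude a change as large as that of Bcl2l11 in either direction.

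The other BH3-only genes were scarce, and their intervals were wide. Bid, whose protein links death receptors to mitochondria once caspase-8 has cut it, had 25.3 (A6), 13.4 (B6), 4.95 (A7) and 16.7 (B7) normalized counts. Its subsets overlapped, with a log2 fold change of -0.92 ± 0.92 (SE; 95% interval -2.93 to 1.09; limma adjusted p = 0.63), and its end overlaps that of Bcl2l13 on the other strand. Pmaip1, which encodes NOXA, a p53 target that binds MCL1, had 16.9 (A6), 36.6 (B6), 11.8 (A7) and 26.2 (B7) normalized counts. Here too the subsets overlapped, at -0.48 ± 0.72 (SE; 95% interval -2.05 to 1.10; limma adjusted p = 0.76), and the sign turned without B6 (0.06) or without A7 (0.07).

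Bad and Bbc3 were too low to test. Bad, whose protein is held inactive by survival kinases, had 3.37 (A6), 7.32 (B6), 9.29 (A7) and 12.8 (B7) normalized counts, an estimated 8 reads in PLZF- and 38 in PLZF+ libraries. Allowing for depth this is a ratio of 1.97, with a 95% counting interval of 0.905 to 4.89 that holds no change, and Gpr137 overlaps Bad on the other strand. Bbc3, which encodes the p53 target PUMA, had 1 estimated read in B6 and 0 in the other 3 libraries, so a difference was not detectable at this depth.

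Of the pore genes, Bax had 35.4 (A6) and 31.7 (B6) normalized counts in PLZF- and 42.1 (A7) and 48.0 (B7) in PLZF+ libraries. The PLZF+ values lay above without passing the test, at 0.41 ± 0.51 (SE; 95% interval -0.70 to 1.53; limma adjusted p = 0.70), and Bax shares bases with Gm45808 on its own strand. Bak1 had 1.69 (A6), 3.66 (B6), 1.86 (A7) and 5.58 (B7) normalized counts, from 4 reads in PLZF- and 13 in PLZF+ libraries. That is a ratio of 1.35 with a 95% counting interval of 0.416 to 5.67, and Ggnbp1 overlaps Bak1. Counting intervals cover counting error only.

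Of the 7 tested members, 4 had subsets that did not overlap, 2 with PLZF+ above (Bcl2 and Bax) and 2 with PLZF+ below (Bcl2l11 and Mcl1). Over all tested loci 51.3% did not overlap, 24.1% with PLZF+ above and 27.2% with PLZF+ below, so 4 of 7 is near the background. The median log2 fold change of the 7 was -0.48 beside -0.03 over all tested loci.

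**Figure D2:**
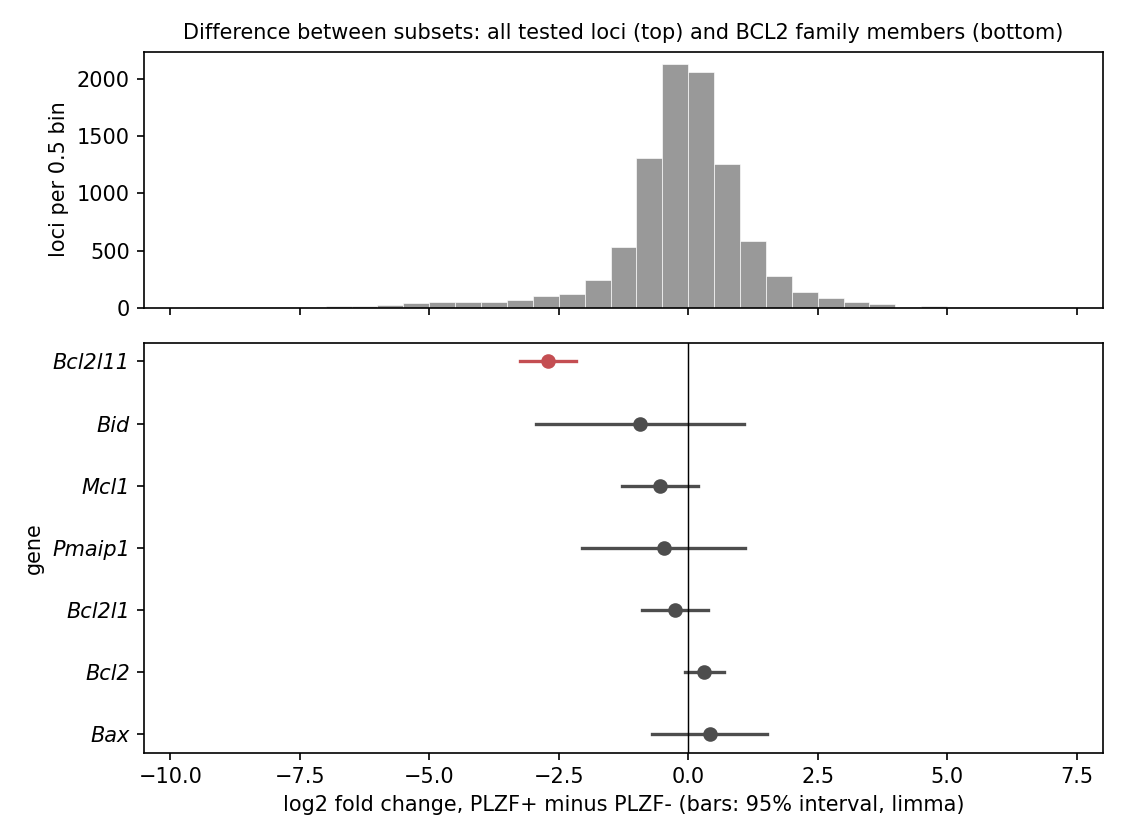
Top, number of tested loci in each 0.5 bin of log2 fold change, PLZF+ minus PLZF-; bottom, the 7 tested members with their limma 95% intervals, red where the adjusted p was under 0.05. The Bcl2l11 interval (-3.26 to -2.17) lies away from 0, and the other 6 intervals cross 0.

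Levels of different genes were compared per length, in FPKM. In PLZF- cells Bcl2l11 (93.6 ± 3.62 FPKM, mean ± SD, n = 2) and Bcl2 (82.3 ± 17.2 FPKM) led the family and did not differ beyond their spread. Bcl2l1 (49.0 ± 12.6 FPKM), Bax (32.9 ± 2.04 FPKM) and Mcl1 (29.4 ± 4.24 FPKM) followed, and Bax and Mcl1 lay within their spread of each other. In PLZF+ cells Bcl2 stood first at 90.9 ± 2.12 FPKM. Bcl2l1 (41.1 ± 2.86 FPKM) and Bax (40.6 ± 3.95 FPKM) did not differ beyond their spread, and Mcl1 (23.4 ± 9.24 FPKM) and Bcl2l11 (15.7 ± 1.34 FPKM) followed, also within their spread of each other. Bid, Bad and Pmaip1 stood between 3.77 and 8.08 FPKM in both subsets, and Bak1 and Bbc3 were the lowest members. Against all tested loci, the mean FPKM of Bcl2 was above that of 92.5%, of Bcl2l11 above 87.1% and of Mcl1 above 72.6%.

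Within each library, the FPKM ratio of the survival gene Bcl2 to the death gene Bcl2l11 was 0.983 (A6) and 0.770 (B6) in PLZF- cells and 5.56 (A7) and 6.07 (B7) in PLZF+ cells. In FPKM, transcripts of both genes were thus near parity in PLZF- libraries and higher for Bcl2 in PLZF+ libraries, a difference of 2.74 (log2). In normalized counts, which are not scaled to length, the ratio was 1.87 (A6), 1.65 (B6), 13.7 (A7) and 15.2 (B7). The ratio of Mcl1 to Bcl2l11 was 0.274 (A6) and 0.356 (B6) against 1.80 (A7) and 1.15 (B7). The ratio of Bcl2 to Bax was 2.75 (A6), 2.23 (B6), 2.44 (A7) and 2.06 (B7), and the subsets overlapped. Ratios with Bcl2l11 restate its lower level and are given as a description, with no test. They are ratios of transcripts, not of proteins.

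**Figure D3:**
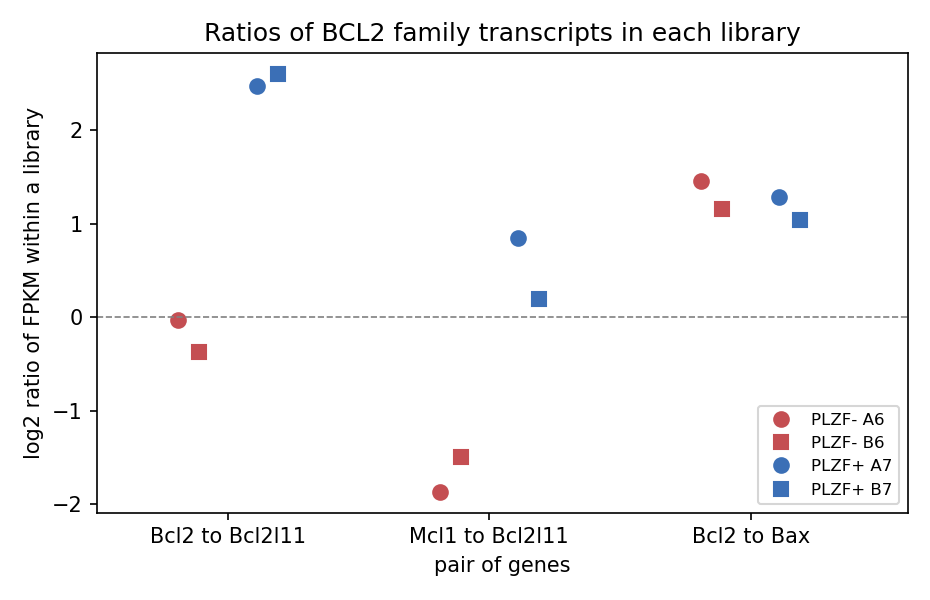
Log2 ratio of FPKM between pairs of members within each library, red PLZF- and blue PLZF+, with the dashed line at equal levels. Bcl2 to Bcl2l11 moves from near 0 in PLZF- to above 2 in PLZF+ libraries, and Bcl2 to Bax overlaps between the subsets.

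The 5 loci whose profiles over the 4 libraries lay closest to that of Bcl2l11, by Euclidean distance between centred log2 values among 8046 loci of 1 symbol, were Tnfrsf18 (distance 0.098), BC019819, Epsti1, Adora2a and Sytl3 (distances 0.149 to 0.154). Tnfrsf18, the co-stimulatory receptor GITR, had 555 (A6), 557 (B6), 84.8 (A7) and 75.3 (B7) normalized counts.

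Around the family, 8 lists of death and survival genes held 95 loci, of which 76 were tested, 0 were higher in PLZF+, 8 were lower and 68 did not pass, beside 4.99% lower and 2.47% higher over all tested loci. The median log2 fold change of the 76 was -0.32, beside -0.03 over all tested loci. The innate lymphoid and natural killer markers and 7 of the 11 dendritic markers given above also fell in PLZF+ cells, and 9 of 10 γδ T cell markers rose, and their part in these counts was not tested.

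No tested gene of the other BCL2 family genes passed (0 of 7, median -0.28), and Bcl2l10, Bcl2l14, Bcl2l15, Bok and Hrk were at 0 in every library. Bcl2a1b, a copy of the NF-κB-driven survival gene A1, had 54.0 (A6), 43.9 (B6), 131 (A7) and 117 (B7) normalized counts. PLZF+ values were the higher ones, at 1.33 ± 0.39 (SE; limma adjusted p = 0.064), and the call was made with a minimum mean of 50, with equal totals, in FPKM and with the well letter as a term. Bcl2a1d was at 1.04 (limma adjusted p = 0.22) and the mitophagy receptor gene Bnip3l at -0.74 (limma adjusted p = 0.15). Bcl2a1a, singled out after its values were seen, had 0 reads in both PLZF- libraries and 21.1 (A7) and 15.6 (B7) normalized counts in PLZF+, at least 4.21-fold higher against a floor of 3 reads per library. The A1 copies are near-identical and reads may be split among them. Summed, the 4 copies had 87.7 (A6), 93.9 (B6), 256 (A7) and 203 (B7) normalized counts.

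No tested gene of the pore and apoptosome list or of the caspase list passed. The first had 0 of 10 genes called (median -0.11), with Apaf1, the apoptosome scaffold, at -0.58 (limma adjusted p = 0.48), Casp9 at -0.88 (0.55) and Vdac2 at 0.23 (0.76). The second had 0 of 7 called (median -0.57), with Casp1 at -1.17 (limma adjusted p = 0.28) and Casp2 at -0.72 (0.29). The inflammatory caspase gene Casp4 came closest, with 74.2 (A6), 79.3 (B6), 29.1 (A7) and 2.79 (B7) normalized counts, at -2.86 (limma adjusted p = 0.064) and called without A7, with a pseudocount of 4 or with the well letter as a term.

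Of 7 tested inhibitors of apoptosis 2 fell. Birc3, which encodes the ubiquitin ligase cIAP2, had 930 (A6), 770 (B6), 229 (A7) and 151 (B7) normalized counts, at -2.18 ± 0.25 (SE; limma adjusted p = 0.00020), and it did not pass without trend and robust moderation (0.091). Naip5, whose product is an inflammasome sensor of flagellin, had 132 (A6), 57.3 (B6), 2.48 (A7) and 20.1 (B7) normalized counts, at -3.36 ± 0.83 (SE; limma adjusted p = 0.027). The Naip5 call was lost without A6 (0.30), without B6 (0.10) or without A7 (0.26), and reads may be shared with near-identical copies. Xiap, the direct caspase inhibitor, was at 0.91 (limma adjusted p = 0.19).

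Of 9 tested death receptor genes 1 fell. Fasl, the ligand with which cytotoxic lymphocytes trigger FAS, had 385 (A6) and 261 (B6) normalized counts in PLZF- and 0 (A7) and 1.12 (B7) in PLZF+ libraries. The estimated reads were 442 against 2, a depth-adjusted 533-fold ratio with a 95% counting interval of 147 to 4414, and the test gave an adjusted p of 4.1e-05 (limma). Fasl is also a gene of natural killer cells, whose markers were lower in PLZF+ libraries, and their part in the Fasl result was not tested. The receptor gene Fas was at -2.58 (limma adjusted p = 0.30) and Ripk3 at 0.86 (0.28).

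Of 10 tested genes listed as p53 and FOXO inputs 1 fell and 9, Trp53, Foxo1 and Foxo3 among them, did not pass. The gene that fell, Ppp1r15a, is a stress gene that restores translation. It had 417 (A6), 366 (B6), 173 (A7) and 155 (B7) normalized counts, at -1.25 ± 0.25 (SE; limma adjusted p = 0.0092). That call was lost without A6 (0.10), A7 (0.10) or B7 (0.17). Atf4 was at -0.82 (limma adjusted p = 0.088) and Mdm4 at -0.51 (0.21). None of 9 tested genes of MCL1 turnover passed, with the MCL1 ubiquitin ligase gene Huwe1 at -0.49 (limma adjusted p = 0.24), the deubiquitinase gene Usp9x at -0.36 (0.47) and Btrc at 1.32 (0.48).

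Of 17 tested survival cytokine input genes 4 fell in PLZF+ cells, 2 of them NF-κB subunits, 0 rose and 13 did not pass (median -0.21). Among those that did not pass, the IL-7 receptor gene Il7r went the other way. It had 1156 (A6), 1277 (B6), 1626 (A7) and 1956.5 (B7) normalized counts, at 0.55 ± 0.17 (SE; limma adjusted p = 0.083). Rel had 1235 (A6), 740 (B6), 301 (A7) and 216 (B7) normalized counts, at -1.90 ± 0.27 (SE; limma adjusted p = 0.00088), lost without B7 (0.068) and at 0.050208 without A6. Nfkb1 had 1481 (A6), 973 (B6), 487 (A7) and 352 (B7), at -1.53 ± 0.24 (SE; limma adjusted p = 0.0020), lost without A6 (0.073) or B7 (0.12).

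The kinase gene Jak1, which serves receptors of the common gamma chain, had 1650 (A6), 1399 (B6), 748 (A7) and 754 (B7) normalized counts, at -1.02 ± 0.18 (SE; limma adjusted p = 0.0038). Il2rb, a receptor chain for IL-2 and IL-15, had 1994 (A6), 1868 (B6), 1236 (A7) and 976 (B7), at -0.81 ± 0.18 (SE; limma adjusted p = 0.014). In every library of these 4 genes the PLZF- values lay above the PLZF+ values. Jak1 was lost without A6 (0.051), A7 (0.13) or B7 (0.14), and Il2rb without any of the 4 libraries (0.066 to 0.37). In FPKM Naip5, Ppp1r15a, Nfkb1, Jak1 and Il2rb did not pass, and with no filter Naip5 (limma adjusted p = 0.14) and Il2rb (0.053) did not pass. Without trend and robust moderation Fasl was the single one of the 8 called list genes to pass. Among all tested list genes, 2 were called lower under that setting.

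**Figure D4:**
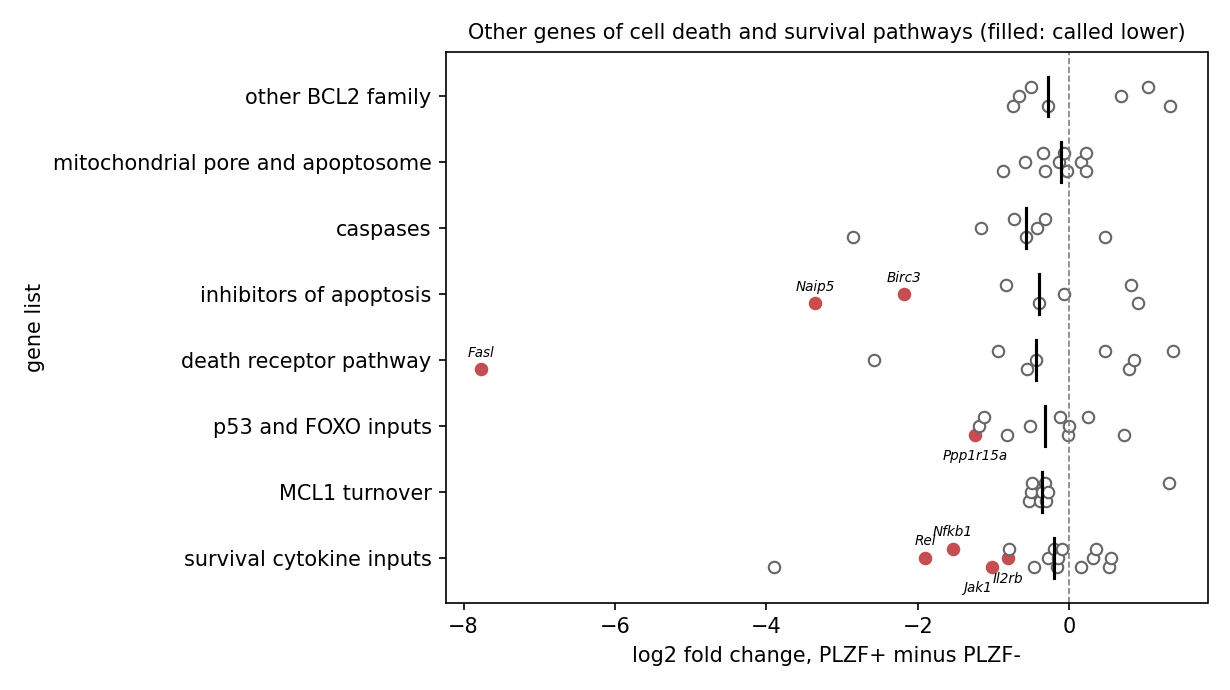
Log2 fold change, PLZF+ minus PLZF-, of each tested gene in the 8 lists; filled red points passed the test and are named, and black bars are list medians. The 8 genes that passed all lie below 0, from Il2rb (-0.81) to Fasl (-7.77).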

How the data were processed

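RNA was measured in 4 libraries, 2 per subset. Per the submitters' processing notes, the authors used HISAT 0.1.6, SAMtools 1.2, Cufflinks 1.2 and Cuffdiff on mm10. The deposited normalized counts are a Cuffnorm signal scaled between libraries, and not raw reads; the authors also deposited FPKM and Cuffdiff p-values and q-values. The labels state neither the annotation nor a strand setting. The columns carry the subset but no replicate number.

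Of 46799 deposited loci, the 2 of Rn45s were left out and overlapping rows of 1 symbol summed, leaving 46165. Rn45s took 26.8% (A6), 33.2% (B6), 28.1% (A7) and 0% (B7) of the total. The value of 1 read was 1.69 (A6), 1.22 (B6), 0.619 (A7) and 0.558 (B7) normalized counts, estimated from steps in the low values; 92.5 to 94.3% of values lay within 0.05 of whole reads, so reads are estimates and no count model was used. Values were tested as log2(normalized count + 1) with limma 3.58.1 (R 4.3.3; trend and robust moderation, two-sided, Benjamini-Hochberg over the 9282 loci with a mean of at least 10, threshold 0.05). The fit was tested on simulated data with an assumed spread, where it called 26.9% of 2-fold and 95.5% of 4-fold changes, and 0.165% of unchanged loci. Sequences come from GENCODE M21.

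Members and lists were chosen with earlier results of these data known. Named genes were all members, each list gene called, and the 3 smallest p of each list. Il7r, Trp53, Foxo1 and Foxo3 were named besides these after their values were seen, and do not enter the counts of named genes. Alternatives were pseudocounts, filters, scalings, FPKM, moderation, the well letter, unsummed rows, Cuffdiff and leaving out each library. Leave-one-out was first run with the filter recomputed on the remaining libraries; keeping the 9282 loci was put in its place after both sets of counts were seen, and both are reported.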

Additional observations from a re-analysis of the deposited data

How the results depend on the processing

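The members' count of 1 lower and 0 higher held under every alternative run, with Bcl2l11 between -2.75 and -2.51 (log2) and its highest limma adjusted p 0.036, without trend and robust moderation. The lowest, 1.2e-20 (limma) with the well letter as a term, came from a fit that leaves little with which to measure spread. Counts and gained calls under that term share this limit. All 123 fits of the 7 tested members under alternatives kept their side of the threshold. The counts over all loci depended on the processing. Loci higher in PLZF+ were 229, against 109 with no filter, 127 in FPKM, 28 without trend and robust moderation and 426 with the well letter as a term. Loci lower were 463, against 277, 258, 186 and 694 under the same 4 settings. Leaving out a library with the tested loci kept gave 20 to 245 higher (99 without A6, 29 without A7, 20 without B7) and 100 to 266 lower (100 without A6, 225 without B6, 266 without A7, 205 without B7). With the filter recomputed on the 3 remaining libraries, the form run first, the ranges were 36 to 360 higher and 231 to 337 lower; Bcl2l11 passed in all 8 fits, with adjusted p (limma) of 0.00041 to 0.013. Other pathway genes higher were 0, against 1 with a minimum mean of 50, 2 with equal totals, 2 in FPKM, 2 with the well letter and 0 to 1 without a library (Btrc, without A6 and the filter recomputed). Those lower were 8, against 3 in FPKM, 2 without trend and robust moderation, 12 with the well letter and 2 to 7 without a library. Of 445 such fits of 25 other named genes, 393 kept their side, 41 lost a call, 11 gained one and 0 reversed. Equal totals moved the median log2 fold change of all loci from -0.03 to 0.08. Fewer samples enter each leave-one-out fit, and the lone library is assumed to vary like the other subset; for the other settings the cause was not tested. No paired analysis was possible because the table columns carry no replicate numbers of the labels; the fit with the well letter is a block on the wells' names, and no label says that letters pair libraries. With 2 pools per subset and few reads for Bad, Bak1, Bbc3, Bid and Pmaip1, changes of these genes within their intervals were not detectable.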
